A study of Labrus bergylta with 25 samples.

Results

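The transcript levels of Segment 1, the bulbous front part of the intestine of the ballan wrasse (Labrus bergylta), were compared between guts given a protein bolus and guts left empty. The comparison used 12 of the 25 libraries of the series, chosen by their treatment label: 6 labelled Proteins (libraries 10, 11, 20, 22, 32 and 33) and 6 labelled Empty (libraries 12, 15, 19, 24, 26 and 30). All fish were labelled female and all tissue as anterior bulbus. Juvenile fish were fasted before the trial, and each gut was removed whole, flushed and incubated in oxygenated Ringer's solution at 14 °C for 60 min before RNA was taken. The protein bolus was casein in ammonium bicarbonate and dilute hydrochloric acid, predigested with trypsin and given at 0.1% of body weight. It also carried the heat-treated trypsin and a protease and phosphatase inhibitor cocktail. The empty guts received no bolus. The other libraries were 7 from guts given cellulose and 6 from guts given hydrolyzed lipid. They counted in the choice of genes tested and entered the model only to estimate the spread between libraries. Their values are also given and compared below for reference. The labels and methods do not describe a protein-free bolus with the same buffer and inhibitors, so stretch, amino acids and the other parts of the mix cannot be told apart here.

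A meal reaches the gut wall in more than 1 way. Filling stretches the wall and is sensed by mechanosensitive neurons of the enteric nervous system, which drive local reflexes of the gut muscle. Amino acids and small peptides are taken up by transporters of the absorbing cells and are sensed by receptors on enteroendocrine cells, which release peptide hormones. In cells generally, amino acids also act on growth signalling and protein synthesis. In a fish with no stomach, such as the ballan wrasse, food enters the intestine directly, and the bulbous segment is the first to meet it.

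The values are normalized read counts, the reads counted on a gene divided by a size factor for the library. The files list 20208 genes by identifiers that start with LABE, and 0 of them were found in the RefSeq gene table of the species, so genes are given by identifier, without names or functions, and pathways and markers of the tissue were not analysed here. The reads on the listed genes ranged from 12233522 to 31586869 in the protein libraries and from 11079610 to 16428546 in the empty ones, with means of 17.4 ± 7.09 M (SD, n = 6) and 14.3 ± 1.97 M (SD, n = 6; two-sided exact permutation test, p = 0.396). Protein library 33 was the deepest. Empty libraries 19 and 30 listed many more genes at 0 than the other empty libraries, and each main count is therefore also given without them.

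The question of the comparison was which transcripts differed when the gut held protein rather than nothing. Genes were tested where at least 5 of the 25 libraries had a value above 10, which 19033 genes did. Of these, 528 differed at an unadjusted p under 0.01 (limma), which is 2.77% of the genes tested. Among the 528, 242 (1.27%) were higher and 286 (1.5%) were lower with protein. With Benjamini-Hochberg adjustment over all genes tested, 3 genes (0.0158%) had an adjusted p under 0.05 in limma, 2 higher and 1 lower. That number rested on single libraries, since it was 14 without empty library 15, 8 without protein library 32 and 0 when any other of the 12 libraries was left out. At an unadjusted p under 0.05 the number was 1867. With the whole reads recovered from the values, the stricter unadjusted threshold gave 557 genes (2.93%) with edgeR and 748 (3.93%) with DESeq2, and an adjusted p under 0.05 was reached by 2 and 81 genes. With only the 12 libraries of both groups in the limma fit, 306 genes (1.61%) were below the unadjusted threshold and 0 below the adjusted one, with 1458 at an unadjusted p under 0.05. The genes higher with protein had a median log2 difference of 0.84, and those lower with protein one of -0.63, against 0.02 over all genes tested. Both sets were chosen by the sign and p of this same difference, which builds in the distance of their medians from 0.02. All differences are between mean log2(value + 1), a scale that understates the change of genes with low values. Since the tissue was sequenced in bulk, fewer cells of a type and less RNA per cell cannot be told apart.

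**Figure D1:**
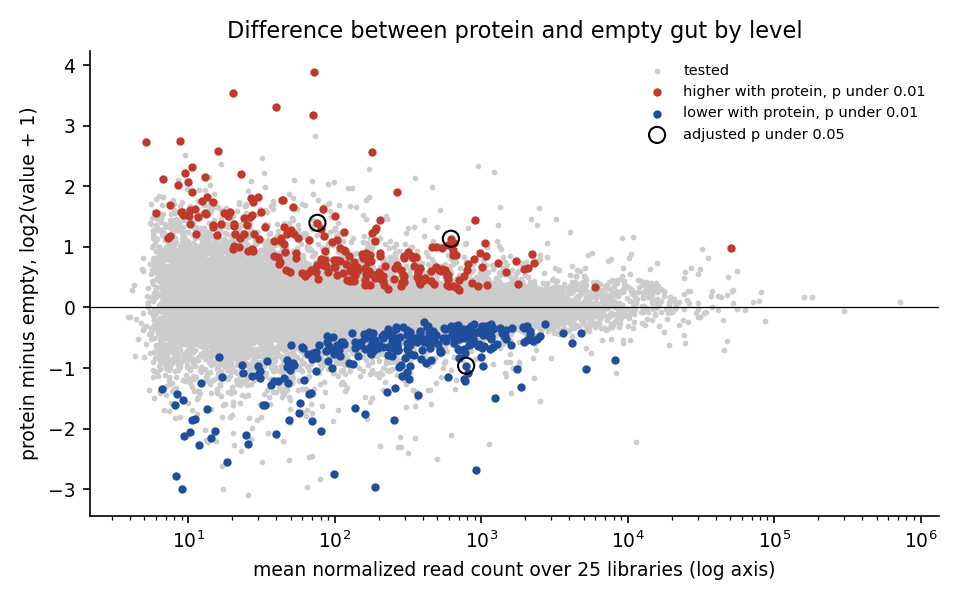
Each point is 1 of 19033 genes, with its mean normalized read count over 25 libraries on a log axis and its protein minus empty difference on the log2(value + 1) scale. Red points (242) are higher and blue points (286) lower with protein at an unadjusted p under 0.01 (limma), and the 3 ringed points have an adjusted p under 0.05; the genes with differences of 2 or more lie mostly at low levels.

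The gene with the smallest p was LABE_00071786-RA, which was higher with protein. Its normalized read count in protein libraries 10, 11, 20, 22, 32 and 33 was 109, 105, 124, 98.0, 115 and 98.2. In empty libraries 12, 15, 19, 24, 26 and 30 it was 32.4, 51.7, 28.7, 53.1, 37.4 and 44.7. Every protein library lay above every empty library, and libraries 19 and 30 lay inside the range of the other empty ones or just below it. The mean was 108 ± 10.1 (SD, n = 6) with protein and 41.3 ± 10.1 (SD, n = 6) when empty, a log2 difference of 1.40 (standard error 0.24, limma adjusted p = 0.0335) that all 6 protein libraries shared. Without empty libraries 19 and 30 the log2 difference was 1.32 and the limma adjusted p was 0.221.

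LABE_00044429-RA was also higher with protein. In the protein libraries, in the same order, it had 857, 686, 1029, 919, 755 and 1041 normalized reads, and in the empty libraries 413, 541, 493, 227, 366 and 421. The groups again did not overlap, the nearest values being protein library 11 and empty library 15. The means were 881 ± 144 (SD, n = 6) and 410 ± 109 (SD, n = 6), a log2 difference of 1.14 (standard error 0.19, limma adjusted p = 0.0335). Without empty libraries 19 and 30 it had the smallest p of all genes tested, with a log2 difference of 1.24 and a limma adjusted p of 0.171.

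LABE_00037253-RA was lower with protein. The protein libraries had 534, 570, 358, 470, 826 and 579 normalized reads and the empty libraries 925, 761, 1164, 1125, 1034 and 1420. Protein library 32 lay above empty library 15, so the groups overlapped, while the other 5 protein libraries lay below every empty one. The highest empty value belonged to library 30 and the next to library 19. The mean was 556 ± 155 (SD, n = 6) with protein and 1071 ± 225 (SD, n = 6) when empty, a log2 difference of -0.96 (standard error 0.17, limma adjusted p = 0.0456). Without libraries 19 and 30 the empty mean was 961 ± 156 (SD, n = 4) and the log2 difference -0.82 (limma adjusted p = 0.361).

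LABE_00016634-RA had the second smallest p among the genes lower with protein and did not pass the adjusted threshold. Its protein values were 97.8, 105, 110, 93.8, 115 and 57.9 normalized reads, and its empty values 450, 141, 239, 400, 388 and 730. All protein libraries lay below all empty libraries, but the empty libraries were far more spread, from library 15 at the low end to library 30 at the high end. The mean was 96.7 ± 20.5 (SD, n = 6) with protein and 391 ± 202 (SD, n = 6) when empty, a log2 difference of -1.86 (standard error 0.36, limma adjusted p = 0.0937). Without empty libraries 19 and 30 the log2 difference was -1.73 (limma adjusted p = 0.361). Of the single libraries left out, empty library 15 gave -2.12 (limma adjusted p = 0.0161) and empty library 30 gave -1.65 (limma adjusted p = 0.221).

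**Figure D2:**
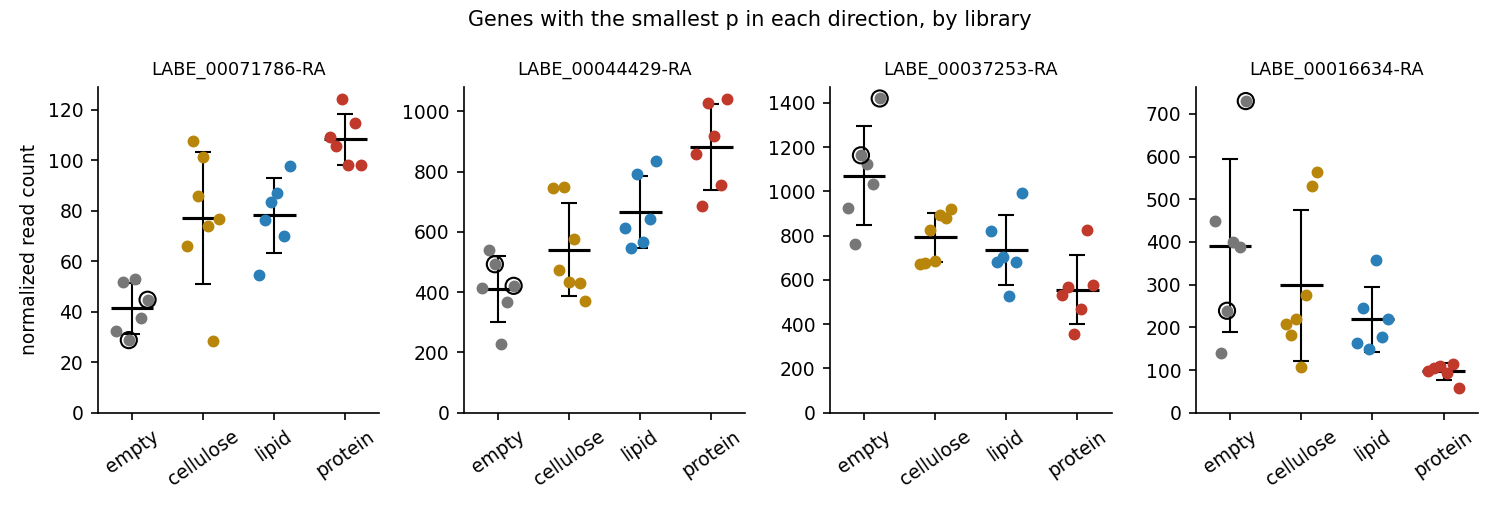
Normalized read counts of 4 genes, 1 point per library, in empty (n = 6), cellulose (n = 7), lipid (n = 6) and protein (n = 6) guts; the horizontal line is the mean, the error bar 1 SD, and the rings mark empty libraries 19 and 30. Protein has the highest mean of the 4 groups in the first and second panels and the lowest in the others, and the ringed points are among the highest empty values for LABE_00037253-RA.

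In guts given cellulose, a bolus without nutrients, all 4 genes had means between those of the empty and the protein guts. In the motility experiment of the paper, cellulose left Segment 1 sooner than protein or lipid, at the earliest within 60 min. How full the cellulose segments still were when RNA was taken is not given. LABE_00071786-RA had 77.1 ± 26.1 normalized reads (SD, n = 7) with cellulose, from 28.6 to 107, and 78.1 ± 14.9 (SD, n = 6) with lipid. On the log2 scale its cellulose minus empty difference was 0.82 (95% interval 0.35 to 1.29) and its protein minus cellulose difference 0.58 (95% interval 0.11 to 1.04). LABE_00044429-RA had 540 ± 154 (SD, n = 7) with cellulose and 666 ± 120 (SD, n = 6) with lipid, with differences of 0.40 (95% interval 0.02 to 0.78) for cellulose minus empty and 0.74 (95% interval 0.36 to 1.12) for protein minus cellulose. LABE_00037253-RA had 793 ± 111 (SD, n = 7) and 735 ± 158 (SD, n = 6) with cellulose and lipid, with differences of -0.42 (95% interval -0.76 to -0.08) and -0.54 (95% interval -0.88 to -0.21). LABE_00016634-RA had 298 ± 178 (SD, n = 7) with cellulose and 218 ± 77.0 (SD, n = 6) with lipid, with differences of -0.43 (95% interval -1.15 to 0.30) and -1.44 (95% interval -2.16 to -0.71). Cellulose library 27, in which many genes were listed at 0, had 28.6 normalized reads of LABE_00071786-RA and 531 of LABE_00016634-RA, and without it the cellulose means were 85.2 ± 16.3 (SD, n = 6) and 260 ± 159 (SD, n = 6). None of these differences against cellulose had an adjusted p under 0.05 in limma; the adjusted p was from 0.924 to 0.938 for cellulose minus empty and from 0.26 to 0.392 for protein minus cellulose. The genes were chosen for their protein minus empty difference, and the 3 comparisons share libraries, so the middle place of cellulose is a description.

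The genes below the unadjusted threshold differed in level between the directions. The median of the mean normalized read count was 124 for the 242 genes higher with protein and 311 for the 286 genes lower with protein, against 156 over all genes tested. Among genes with a mean under 50, 75 were higher and 40 lower, together 2.1% of the 5475 tested. From 50 to 500 the numbers were 123 and 141 (3.04% of 8684), and from 500 to 5000 they were 42 and 103 (3.24% of 4470). Of the 404 genes at 5000 or more, 2 were higher and 2 lower (0.99%). Up to 5000 the sizes of the differences ran the other way, with a median absolute log2 difference of 1.48 under 50, 0.66 from 50 to 500 and 0.52 from 500 to 5000. For the few genes at 5000 or more it was 0.92. These are sizes among genes that had passed the p threshold, so they are a description. The filter did not require values above 10 in more than 1 group. A gene with a low mean could thus be tested because of high values in 1 group alone, which favours differences at low levels. Of the 242 higher genes, 25 were at 0 in empty library 19 or 30, with a median level of 11.7, against 1 of the 286 lower genes. The numbers by level and direction are therefore a description too.

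Most differences were modest. Of the 528 genes, 125 had an absolute log2 difference under 0.5, 249 one from 0.5 to 1, 124 one from 1 to 2 and 30 one of 2 or more. The 30 largest comprised 15 higher and 15 lower genes, of which 23 had a mean under 50 normalized reads, 22 were listed at 0 in at least 1 of the 12 libraries, and 14 were listed at 0 in empty library 19 or 30. In 1 of the 30 the groups did not overlap, and the smallest adjusted p among them was 0.165 (limma). The large differences were thus seen mainly in genes with values near 0 in single guts.

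The 2 groups did not overlap for 82 of all genes tested (0.431%), with protein above empty in 30 (0.158%) and below in 52 (0.273%). Of these 82 genes, 66 were among the 528, where they made up 23 of the genes higher and 43 of the genes lower with protein. The 50 genes with the smallest p held 19 higher and 31 lower genes, with absolute log2 differences from 0.47 to 3.55 (median 0.85) and mean levels from 6.73 to 51059 normalized reads (median 307). Their largest adjusted p was 0.191 (limma). In 21 of the 50 the groups did not overlap. All 50 stayed at an unadjusted p under 0.01 (limma) without empty libraries 19 and 30, as did 180 of all 528 genes (34.1%). The 50 were chosen for their small p in largely the same libraries, which favours both results. In the fit without the 2 libraries no gene had an adjusted p under 0.05.

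The lipid and cellulose libraries gave a comparison that used none of the protein or empty guts, and in which both groups had been given a bolus. Of the 242 genes higher with protein than when empty, 180 (74.4%) had a higher mean log2 value with lipid than with cellulose, against 49.4% of all genes tested. Of the 286 genes lower with protein, 94 (32.9%) were higher with lipid than with cellulose. The median lipid minus cellulose difference was 0.17 on the log2 scale for the former and -0.07 for the latter, compared with -0.003 over all genes tested. The direction seen with protein was thus more common than its opposite in both lists, at a fraction of the size. Cellulose library 27 listed 659 genes at 0, nearer to empty libraries 19 and 30 than to the other cellulose and lipid libraries, which listed from 91 to 355. Without it the shares were 74.4% and 33.9%, against 49% of all genes tested. Genes are not independent replicates, and no test was made of these shares.

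Empty libraries 19 and 30 listed 803 and 1003 of the 20208 genes at 0. The other empty libraries, 12, 15, 24 and 26, listed 128, 91, 136 and 239, and protein libraries 10, 11, 20, 22, 32 and 33 listed 149, 124, 308, 112, 146 and 89. The mean number was 155 ± 78.3 genes (SD, n = 6) with protein, 400 ± 398 (SD, n = 6) over all empty libraries and 148 ± 63.4 (SD, n = 4) over the other 4 empty ones. Since libraries 19 and 30 were singled out for these numbers, the means are a description. On the listed genes, libraries 19 and 30 held 13359564 and 13885582 reads, and protein library 10, with 149 genes at 0, held 14045703. Empty library 26 had the fewest reads of the 12 libraries, 11079610, and 239 genes at 0. Why libraries 19 and 30 listed more genes at 0 was not tested.

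**Figure D3:**
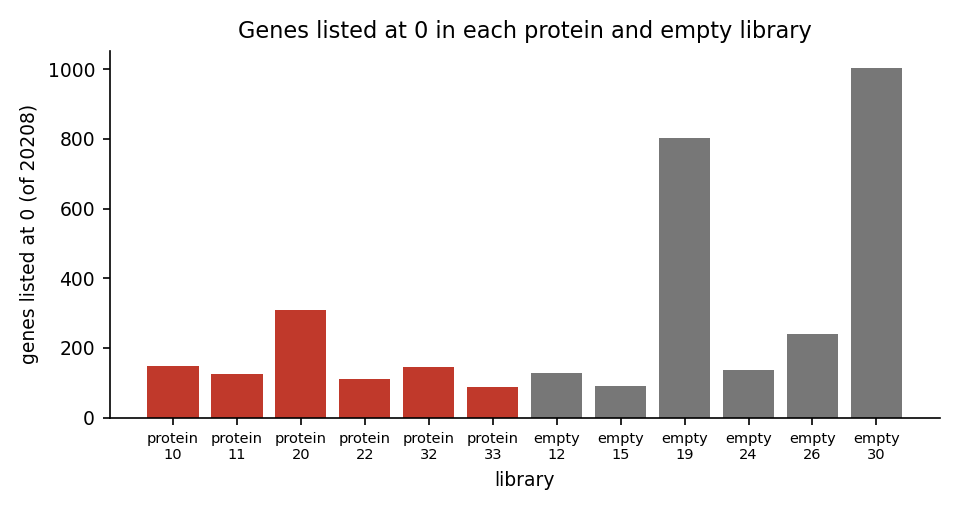
Number of genes listed at 0, of 20208, in each of the 6 protein libraries (red) and the 6 empty libraries (grey). Empty libraries 19 (803 genes) and 30 (1003 genes) stand above the other 10 libraries, which range from 89 to 308.

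The genes at 0 in these libraries were mostly ones with low values elsewhere. Over the other 23 libraries the genes at 0 in library 19 had a median level of 6.82 normalized reads and those in library 30 one of 7.14, while genes at 0 in neither had one of 162. A value of 0 allows up to 3 reads, or 2.97 normalized reads in library 19 and 2.92 in library 30, by counting error alone. Of the genes at 0 in library 19, 220 (27.4%) averaged more than 10 normalized reads in the other 4 empty libraries (excluding 30) and 16 averaged more than 50, up to 333. In library 30 the numbers were 282 (28.1%) and 21, up to 1774. The libraries shared 278 of these genes, which is 34.6% of those in library 19 and 27.7% of those in library 30. Over all 20208 genes, 3.97% were at 0 in library 19 and 4.96% in library 30. Empty library 12, with 128 genes at 0, shared 40 of them with library 30, so such sharing was not limited to libraries 19 and 30. Of the 1528 genes at 0 in either library, 1278 were at 0 in none of the other 4 empty libraries and 1189 in no protein library.

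A gene at 0 in an empty library has its empty mean lowered by that value. Choosing genes by these zeros builds in a difference towards higher with protein. The directions given here are therefore a description. Of the 1528 genes, 867 were tested, and their median log2 difference was 0.64, higher with protein, with all libraries and 0.07 without libraries 19 and 30. Of these 867 genes, 25 were higher and 1 was lower with protein at an unadjusted p under 0.01, together 3% of them and near the 2.77% of all genes tested. They made up 10.3% of the 242 genes higher with protein and 0.35% of the 286 lower, whereas 4.56% of all genes tested were at 0 in either library. The 25 genes had low levels, with a median of 11.7 normalized reads, and a median log2 difference of 2.03, which was 1.38 without both libraries. The groups overlapped in all 25, and 6 of them (24%) kept an unadjusted p under 0.01 (limma) without the 2 libraries. Of the 217 higher genes at 0 in neither library, 76 (35%) kept such a p. In 23 of these 217 (10.6%) the groups did not overlap. The zeros therefore entered few of the 528 genes, 26 in all, but 14 of the 30 with a log2 difference of 2 or more.

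**Figure D4:**
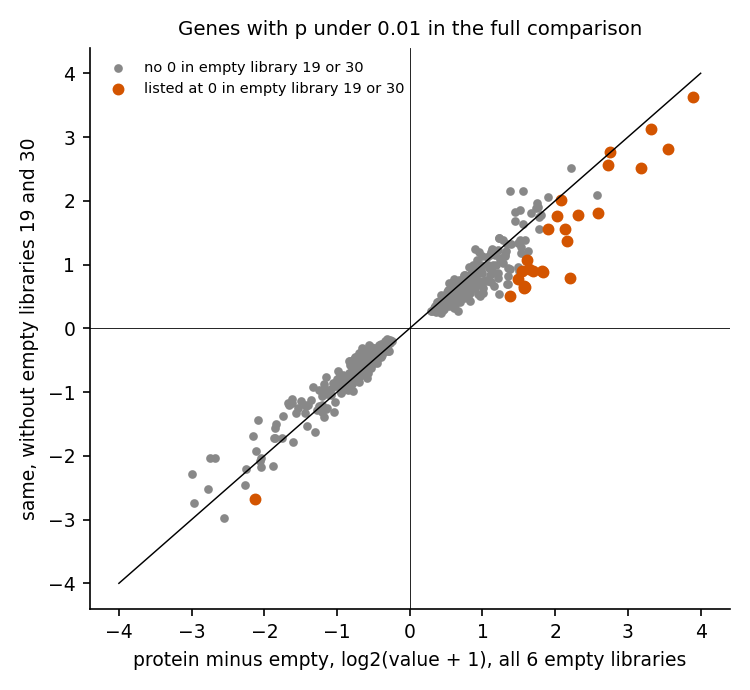
Protein minus empty difference on the log2(value + 1) scale for the 528 genes with an unadjusted p under 0.01, with all empty libraries (horizontal axis) and without empty libraries 19 and 30 (vertical axis), 1 point per gene; the diagonal marks equal values. All 528 genes keep their direction, and most of the 26 genes listed at 0 in library 19 or 30 (orange) lie below the diagonal.

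The effect of the 2 libraries reached beyond the genes at 0. Without library 19 the genes at an unadjusted p under 0.01 fell in number from 528 to 411, and without library 30 to 368. Without both it was 289 (1.52% of the genes tested), with 124 higher and 165 lower, and no gene had an adjusted p under 0.05 in limma (smallest adjusted p 0.171, with 1336 genes at an unadjusted p under 0.05). On recovered reads edgeR also gave 0 genes at an adjusted p under 0.05 without both libraries and DESeq2 gave 17. Of the 528 genes, 180 (34.1%) kept an unadjusted p under 0.01, 82 of the higher and 98 of the lower, and 109 genes were newly below it. All 528 kept their direction, which the shared libraries favour. The median log2 difference changed from 0.84 to 0.70 for the genes higher with protein and from -0.63 to -0.53 for those lower with protein. Most of the calls that ended did so with a modest rise in p, to a median of 0.032 for the higher and 0.0337 for the lower genes.

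Removing 2 libraries also leaves fewer replicates, so the other pairs of empty libraries were left out in the same way. The 14 other pairs gave from 315 to 971 genes, so that leaving out 19 and 30 together gave the lowest number of the 15 pairs. The 6 pairs with neither library gave from 546 to 971 genes, and the 8 pairs with 1 of them from 315 to 534. The highest number came without libraries 12 and 24. Single empty libraries other than 19 and 30 gave from 476 (without 26) to 656 (without 24), and single protein libraries from 407 (without 22) to 664 (without 32). Of the genes called in the full comparison, the 14 other pairs kept from 199 (without 26 and 30) to 395 (without 15 and 24). Without 19 and 30 it was 180, the lowest of the 15 pairs, with 208 kept without 19 and 26. Many calls were thus lost with any pair left out.

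**Figure D5:**
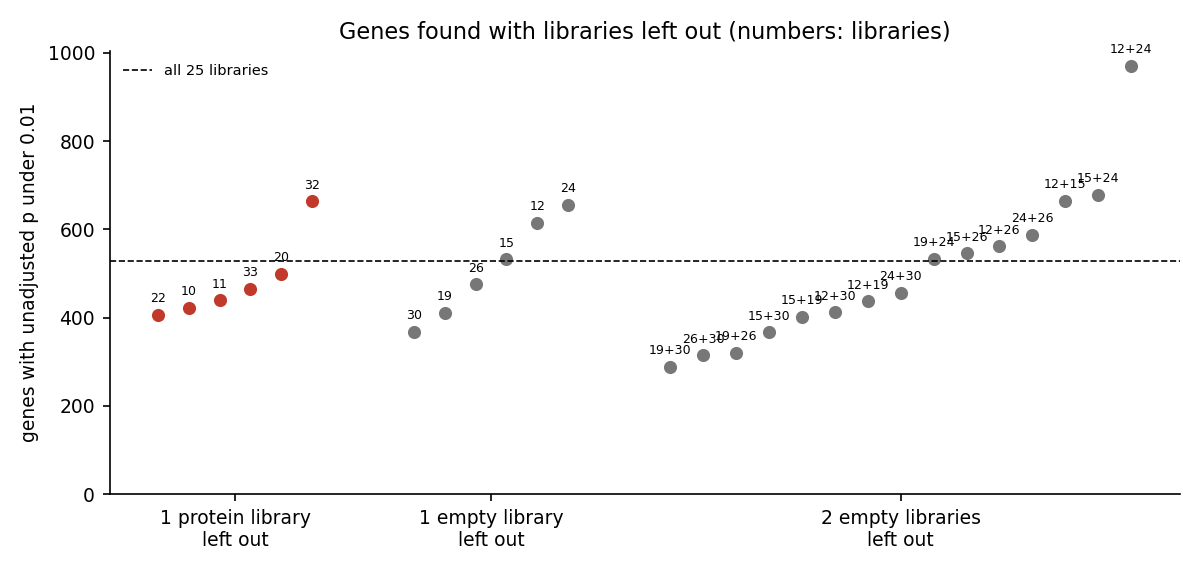
Genes at an unadjusted p under 0.01, by number, when 1 protein library (red), 1 empty library or 2 empty libraries (grey) are left out, each point labelled with the library numbers; the dashed line is the 528 genes of the full comparison. Leaving out 19 and 30 together gives 289 genes, the lowest of the 15 pairs, and leaving out 12 and 24 gives 971.

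Libraries 19 and 30 often held the empty value farthest from protein. Among the genes higher with protein, library 19 or 30 had the lowest empty value in 143 of 242 (59.1%), and among those lower with protein the highest empty value in 168 of 286 (58.7%). Over all genes tested these 2 libraries held the lowest empty value in 40.8% and the highest in 38.4%. Library 26 was next, with 47 of the higher (19.4%) and 58 of the lower genes (20.3%), near the 17.3% and 19.5% of all genes tested in which it held the lowest and the highest empty value. Library 12 was farthest in 7 (2.89%) and 13 (4.55%), against 13.1% at either end over all genes tested. The called genes were chosen by p from these same empty values. That choice favours libraries that often lie far from their group, so the empty shares are a description. On the protein side library 22 had the highest protein value in 74 of the 242 genes and library 20 the lowest in 104 of the 286, while library 32 was the extreme in 8 and 23. The shares over all genes tested were not computed for the protein libraries, so whether these numbers are particular to the called genes is not known. The median absolute log2 distance of a library from the median of the other libraries of its group was 0.40 for library 19 and 0.35 for library 30, from 0.27 to 0.35 for the other empty libraries and from 0.24 to 0.33 for the protein libraries. A distance above 1 was seen for 18.6% of genes in library 19 and 16.8% in library 30, and for 9% to 13.5% in the other 10 libraries. What set these 2 guts apart was not tested.

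The lipid and cellulose values were compared again for genes that did and did not keep an unadjusted p under 0.01 (limma) without the 2 libraries. The genes not kept had a median p of 0.032 (higher) and 0.0337 (lower) in that limma fit. Other pairs of empty libraries left out also ended many calls. Whether the genes not kept depended on these 2 libraries in particular was not tested. Of the 82 higher genes that kept an unadjusted p under 0.01 without them, 69 (84.1%) had a higher mean with lipid than with cellulose, and of the 160 that did not, 111 (69.4%). Among the lower genes, 69 of the 98 kept (70.4%) and 123 of the 188 not kept (65.4%) had a lower mean with lipid than with cellulose. Over all genes tested 49.4% had a higher and 50.6% a lower mean with lipid than with cellulose. Without cellulose library 27 the shares were 79.3% and 71.9% for the higher and 69.4% and 64.4% for the lower genes, in the same order. The difference between kept and lost genes was not tested.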

How the data were processed

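Segment 1 RNA was sequenced as stranded mRNA libraries (single reads of 75 bases). Reads were trimmed (Trim Galore 0.4.2), mapped (HISAT2) and assigned to genes (featureCounts) by the authors, who then normalized for library depth with DESeq2. Each deposited value is a normalized signal, namely a gene's count over 1 size factor per library. The paper names an Ensembl annotation, but the deposited identifiers are of another one, and its source is not given in the sources used here.

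Groups came from the treatment labels. Library numbers come from the titles and pair no libraries. Groups were compared on log2(value + 1) by limma 3.58.1 (R 4.3.3; eBayes with a trend and robust variances), with all 25 libraries in 4 groups in 1 fit and genes above 10 in at least 5 libraries. An unadjusted p under 0.01 is the threshold of the study. Every deposited value was a whole multiple of 1 step per library (tolerance 0.1 read, 100% of values), and the reads so recovered were tested with edgeR 4.0.16 and DESeq2 1.42.0. In libraries 19 and 21 the step lies close to 1 (0.991 and 1.01), but their values are not whole numbers, so rounding does not account for it. Reads of the 30 pairs of libraries within the protein and the empty group had a chi-square of at least 41.3 per degree of freedom, so none was a copy. The tests were tried on simulated counts, with 200 genes changed by 1 on the log2 scale between protein and empty. The simulated spread was set by level and not taken from these libraries. At an adjusted p under 0.05 limma found 119 of the changed genes with 10 false calls. For edgeR the numbers were 128 and 9, and for DESeq2 134 and 22. The genes named are the 2 with the smallest p in each direction and any with an adjusted p under 0.05. The members of the comparison and the rules were chosen with earlier results of these data known. Each library came from its own gut, and counting limits cover counting error only.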

Additional observations from a re-analysis of the deposited data

Results flagged for a closer look

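In 3 of 22 sets of values checked, 1 library stood far from its group, and chance gives about 1 in 20. Protein library 33 held 31586869 reads, against 12233522 to 16218891 in the other protein libraries. Protein library 20 listed 308 genes at 0, against 149 in the next protein library, and had the fewest reads of the 6. The value of LABE_00016634-RA was 57.9 in protein library 33 and from 93.8 to 115 in the other protein libraries. Without library 33 the log2 difference of this gene was -1.72 (limma adjusted p = 0.199). The high numbers of genes at 0 in empty libraries 19 and 30 were not singled out in this check, since 2 such values in 1 group lie close to each other.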

How the results depend on the processing

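The 4 named genes kept their direction under all 40 alternatives, which their choice by p and the shared libraries favour. An adjusted p under 0.05 was reached in 16 of the 40 for LABE_00071786-RA and 17 for LABE_00044429-RA. It was reached in 12 for LABE_00037253-RA and 7 for LABE_00016634-RA. For the number of genes at an unadjusted p under 0.01 (528), pseudocounts of 0.1 and 5, no filter, a minimum mean of 50, upper quartile and TMM scaling, non-robust moderation, edgeR and DESeq2 stayed within 1.5 times, from 412 to 748. With only the 2 groups compared it was 306 (32.4% higher, against 45.8%), and 238 when libraries 19 and 30 were also left out. Without 19 and 30 it was 289 with limma and 336 with edgeR. Among the other pairs it was 971 without 12 and 24, 321 without 19 and 26, and 315 without 26 and 30. Leaving out 1 library gave from 368 to 664, with the share of higher genes from 34.6% (without protein library 10) to 55.4% (without protein library 20). The 3 genes at an adjusted p under 0.05 were less stable. Leaving out 1 library gave from 0 to 14: 14 without empty library 15, 8 without protein library 32 and 0 without any of the others. With only the 2 groups it was 0, both with and without libraries 19 and 30, and with limma or edgeR without 19 and 30 also 0. Of the other pairs 8 gave 0, and the rest gave 19 (12 and 15), 17 (15 and 26), 6 (15 and 19, and also 15 and 24), 4 (15 and 30) and 2 (12 and 24). DESeq2 on recovered reads gave 81 genes, 30 higher and 51 lower, and 17 without 19 and 30; 77 of the 81 had an unadjusted p under 0.01 with limma. The protein minus empty difference in the mean number of genes at 0 was -245 with and 6.17 without 19 and 30, which their choice for these numbers builds in. The pairs, the combined settings and the shares without cellulose library 27 were chosen after seeing the data, and beyond fewer libraries causes were not tested. Limma on the libraries with recovered reads was not run apart, as these were all 25. No paired analysis was made, since each library has its own number and the treatment labels give no pairing. Whether guts were handled in blocks is not given by these labels.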
